A study of Mus musculus with 20 samples.

Results

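The miRNA repertoire of wild-type mouse cortical neurons in normoxia was described from 5 small RNA libraries. These were all the libraries of the normoxic wild-type group among 20 in the series, and they were chosen by their label, not by a measured value. The group had no contrast, so every value is a level or a share within it. Of 1481 mature miRNA names (entries) in the table, 1379 had at least 1 read in these libraries. The neurons were isolated from cortices of embryos at embryonic day 15 and grown for 7 days in culture. The mice carried the strain name C57BL/6N-Cdr1asem1Nikr and the genotype WT at Cdr1as, the locus of the circular RNA ciRS-7. Before harvest the cultures spent 12 h in fresh medium with 25 mM glucose and 0.2 mM pyruvate, at 5% CO2 and 37 °C. The series describes the 5 libraries as biological replicates, and the labels do not say how embryos or cultures were pooled.

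A miRNA is cut from a hairpin precursor, which can give a mature form from its 5′ side (5p) and another from its 3′ side (3p). Usually 1 arm is retained in the Argonaute protein as the guide and the other is degraded. The guide finds its targets mainly through its seed, bases 2 to 8 from the 5′ end, so forms that share a seed are counted as a family. In the brain, miR-9 is known from neural progenitors and neurons, and miR-124 and miR-128 are classical neuronal miRNAs. The let-7 family accumulates as cells leave the progenitor state.

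The recovered reads were 9117862, 8276818, 8208163, 5164319 and 2492065 in replicates 1 to 5, a 3.66-fold range. A floor of 3 reads corresponded to 0.329 CPM (reads per 1000000 recovered reads) in the deepest and 1.20 CPM in the shallowest library. A check for a library deposited more than once found none (chi-square per degree of freedom 34.8 to 198 over the pairs), and each was counted as 1 replicate. Replicate 5, the shallowest, stood apart. Over 378 entries of at least 10 CPM on average, Pearson's r of log2(CPM + 0.5) was 0.992 to 0.997 between the other 4 libraries and 0.960 to 0.971 between each of them and replicate 5. After all libraries were thinned to 2492065 reads, the ranges were 0.991 to 0.996 and 0.958 to 0.970. The points are entries that share libraries, so these correlations carry no test. The average of 10 CPM included replicate 5, so entries high only there could be among the 378.

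The 20 most abundant forms are shown with their mature sequences (RefSeq, GRCm38.p6), 5′ to 3′, because they held 79.2% ± 0.774 of all reads (SD, n = 5). Capitals mark the seed, and forms that share a seed stand together.
miR-9-5p: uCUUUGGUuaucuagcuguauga
miR-9-3p: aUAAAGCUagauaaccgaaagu
miR-9b-3p: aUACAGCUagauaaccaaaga
let-7i-5p: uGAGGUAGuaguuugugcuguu
let-7g-5p: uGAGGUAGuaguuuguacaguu
let-7f-5p: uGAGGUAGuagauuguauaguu
let-7c-5p: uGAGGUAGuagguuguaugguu
let-7a-5p: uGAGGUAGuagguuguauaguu
miR-99a-5p: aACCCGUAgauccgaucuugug
miR-100-5p: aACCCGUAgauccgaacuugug
miR-128-3p: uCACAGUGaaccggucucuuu
miR-125b-5p: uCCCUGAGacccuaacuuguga
miR-26a-5p: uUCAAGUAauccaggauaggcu
miR-127-3p: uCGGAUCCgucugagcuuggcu
miR-181a-5p: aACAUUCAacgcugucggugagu
miR-7b-5p: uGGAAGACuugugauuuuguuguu
miR-129-5p: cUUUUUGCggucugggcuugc
miR-340-5p: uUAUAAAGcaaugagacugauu
miR-381-3p: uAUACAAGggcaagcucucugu
miR-103-3p: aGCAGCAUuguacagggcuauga

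The repertoire was dominated by a few forms. In each of the 5 libraries, 5 entries sufficed for 50% of the reads, 43 to 46 for 90% and 175 to 193 for 99%. The 5 most abundant entries held 51.7% ± 1.10, the 10 most abundant 67.8% ± 1.19 and the 50 most abundant 91.2% ± 0.236 (SD, n = 5), which left 8.82% to the other 1431. The same 10 entries were the top 10 of every library. Of the top 20, 17 were shared by all 5 libraries, and of the top 50, 46 were.

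miR-9-5p was the most abundant form in all 5 libraries. Its share was 27.8%, 26.8%, 26.6%, 25.8% and 24.4% in replicates 1 to 5 (26.3% ± 1.26, SD, n = 5). The 95% binomial interval (Wilson) of the lowest of these was 24.3% to 24.4%, so counting error was small beside the spread between libraries. The form can come from 3 precursors in RefSeq: Mir9-1 in an intron of the noncoding RNA Gm3764 (chr3:88215598-88215686), Mir9-2 in an exon of the noncoding C130071C03Rik (chr13:83738814-83738885) and Mir9-3 in an intron of Mir9-3hg (chr7:79505264-79505353, all plus strand).

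miR-99a-5p was second in all 5 libraries, at 8.21%, 10.2%, 9.36%, 9.69% and 12.1% (9.90% ± 1.41). It was highest in replicate 5, and without that library the mean was 9.36% ± 0.835 (n = 4). The ratio of miR-9-5p to miR-99a-5p was 2.02 to 3.38. The precursor of miR-99a lies in an intron of the long noncoding RNA Mir99ahg (chr16:77598936-77599000, plus strand).

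miR-128-3p, the second marker of the labelled cell type, held 7.50%, 5.58%, 5.27%, 4.65% and 7.04% (6.01% ± 1.21). Replicates 1 and 5 were high and the other 3 lower, and its coefficient of variation (CV, the SD over the mean) of 20.1% was exceeded only by those of miR-129-5p and miR-381-3p among the 20. Its precursors lie in introns of protein-coding genes, Mir128-1 in R3hdm1 (chr1:128202361-128202430, plus strand) and Mir128-2 in Arpp21 (chr9:112118636-112118711, minus strand). Because of its spread it changed places with let-7i-5p (5.29% ± 0.255), which was above it in replicate 4 only.

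Below these, ranks were firm only where gaps exceeded the spread. miR-125b-5p (3.11% ± 0.367) was eighth and miR-9-3p (1.80% ± 0.136) eleventh in every library. let-7g-5p, let-7f-5p and miR-9b-3p exchanged ranks 5 to 7, and let-7c-5p (2.58% ± 0.0902) and miR-26a-5p (2.50% ± 0.0628) exchanged ranks 9 and 10. From miR-127-3p (1.25% ± 0.120) through miR-181a-5p, miR-7b-5p and miR-100-5p to miR-129-5p (1.16% ± 0.267), means differed by less than the range of miR-129-5p alone (0.757% to 1.5%). miR-340-5p, miR-381-3p and miR-103-3p, which lay between 0.804% and 0.893% on average, left the top 20 in at least 1 library.

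**Figure D1:**
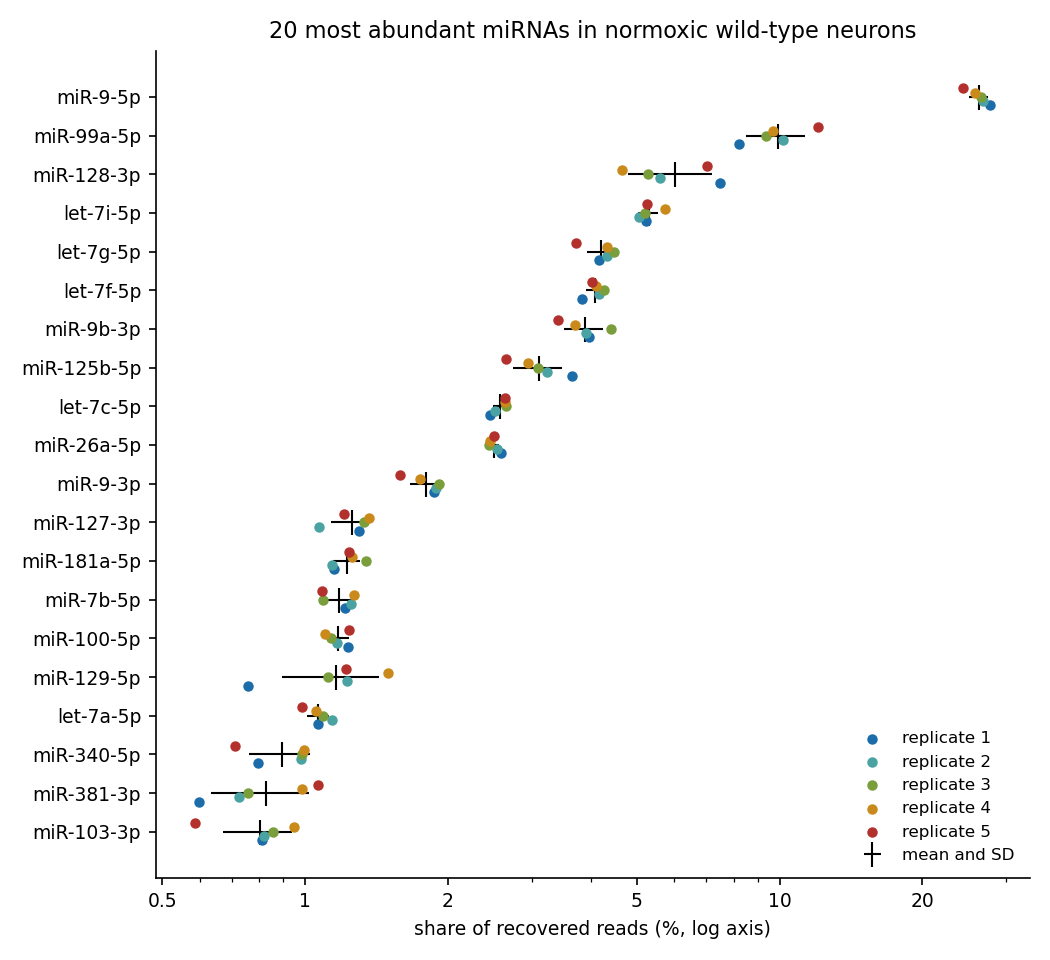
Share of recovered reads (%, log axis) of the 20 most abundant miRNAs, with 1 coloured point per library and a black cross for the mean and SD of 5. miR-9-5p lies between 24.4% and 27.8%, apart from all others, while the points of let-7g-5p, let-7f-5p and miR-9b-3p overlap.

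miR-124-3p, often named as the leading miRNA of mature neurons, was not among them. It was present at 3231, 3205, 4041, 3378 and 2909 CPM, a share of 0.335% ± 0.0421, and ranked 37th by its mean. The ratio of miR-9-5p to miR-124-3p was 65.8 to 85.9 in the 5 libraries (79.1 ± 8.26). It is a ratio of reads, and whether the library preparation captured both sequences equally was not tested.

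Grouped by seed, the 10 leading families of entries with a matched sequence held 78.0% ± 1.35 of all reads. Of the 1481 entries, 1248 (98% of reads) could be matched to a RefSeq sequence. They carried 1062 seeds, 935 of them in a single entry. Entries without a match, among them miR-30d-5p (0.464% of reads) and miR-124-3p (0.335%), were counted in no family. The miR-30 family, with miR-30c-5p at 0.599% and miR-30a-5p at 0.334%, is thus incomplete, and the tenth place is not firm. miR-9-5p was the leading family by itself. The let-7 family, with seed GAGGUAG, came next with 18%, 18.4%, 18.9%, 19.0% and 17.8% (18.4% ± 0.527).

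Within the let-7 family, let-7i-5p held 28.7% ± 1.20 of the family, let-7g-5p 22.8% ± 1.09, let-7f-5p 22.1% ± 0.625 and let-7c-5p 14% ± 0.486. let-7a-5p, the founding name of the family, held only 5.79% ± 0.276. let-7b-5p held 3.09%, let-7d-5p 2.03%, and let-7e-5p and miR-98-5p under 1% each. let-7k, the tenth entry with this seed, had a mean of 1.14e-04% of all reads. The order of let-7i, let-7c, let-7a and the rarer members was the same in the means with and without replicate 5, whereas let-7g-5p and let-7f-5p exchanged places in replicate 5.

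Several let-7 forms differ by 1 base, counted from the 5′ end. let-7a-5p and let-7c-5p differ by A19G, let-7a-5p and let-7f-5p by G12A, let-7a-5p and let-7e-5p by U9G, and let-7b-5p and let-7c-5p by G17A. How reads that fit more than 1 name were assigned is not given in the sources used here, so the division between such forms is less certain than the family total. let-7j, chosen after its value was seen, differs from let-7i-5p by G8U within the seed and in length, and was listed at 0.413% ± 0.0514 of reads, near the level of let-7d-5p (0.373% ± 0.0284).

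The miR-99/100 family, with seed ACCCGUA, held 11.8% ± 1.42 of reads (10.2% to 14%; 11.2% ± 0.741 without replicate 5). miR-99a-5p made up 83.9% ± 2.19 of it, miR-100-5p 10.1% ± 1.20 and miR-99b-5p 6.03% ± 1.01. miR-99a-5p and miR-100-5p differ by 1 base (A16U, from miR-100-5p to miR-99a-5p), and their ratio was 6.66 to 9.74.

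The miR-125 family held 3.43% ± 0.421, of which miR-125b-5p took 90.8% ± 0.792 and miR-125a-5p 8.69% ± 0.797. These 2 families and let-7 are neighbours in the genome, since Mir99a, Mirlet7c-1 and Mir125b-2 lie in Mir99ahg on chromosome 16, and Mir100 and Mir125b-1 on chromosome 9. The ratio of miR-99a-5p to let-7c-5p was 3.34 to 4.57, and that of miR-100-5p to miR-125b-5p 0.339 to 0.468. Each form with several precursors sums over them, so these ratios are not ratios within a locus.

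Among the remaining families, miR-26 (2.58% ± 0.0572) varied least between libraries, and miR-26a-5p made up 97.0% ± 0.298 of it. Its precursors lie within Ctdspl and Ctdsp2, genes of small phosphatases that act on RNA polymerase. The miR-181 family (2.30% ± 0.114) was divided between miR-181a-5p (53.2% ± 1.33), miR-181b-5p (30.1% ± 1.18) and miR-181d-5p (16.1% ± 0.627). miR-181b-5p and miR-181d-5p differ by C12U and in length.

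The miR-7 family, whose targets include the ciRS-7 circular RNA, held 1.55% ± 0.134. miR-7b-5p exceeded miR-7a-5p in all 5 libraries, at 1.18% ± 0.0885 against 0.373% ± 0.0590, and the ratio was 3.85, 3.03, 2.92, 2.82 and 3.42 in replicates 1 to 5. The forms differ by A10U, from miR-7a-5p to miR-7b-5p, and in length. miR-7b comes from 1 precursor, Mir7b, outside annotated host genes (chr17:56242988-56243098, plus strand).

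**Figure D2:**
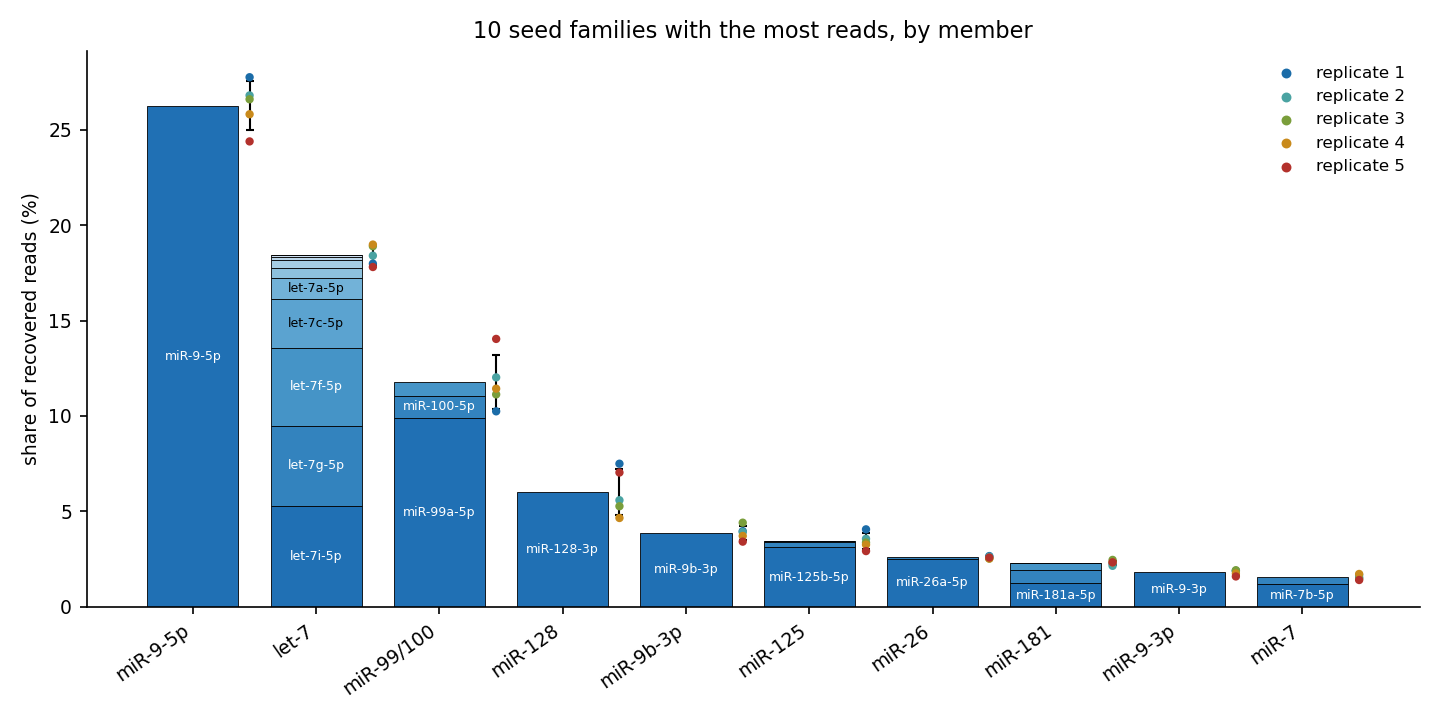
Mean share of recovered reads (%) of the 10 leading seed families among entries matched to a sequence. Each bar is stacked by member, with 1 point per library and the SD of 5 at its right. The let-7 bar (18.4%) is divided among 5 labelled forms and several small ones, while miR-99a-5p fills most of the miR-99/100 bar (11.8%).

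The miR-9 loci gave reads under 4 names. miR-9-5p and miR-9-3p come from the plus strand. miR-9b-3p and miR-9b-5p are annotated on the minus strand, and the precursors of miR-9b-3p lie inside the spans of Mir9-1, Mir9-2 and Mir9-3 (chr3:88215613-88215670, chr13:83738821-83738876 and chr7:79505279-79505336). miR-9b-5p is listed for those on chromosomes 3 and 7. miR-9b-3p is the exact complement of miR-9-5p over 21 bases, its whole length, and miR-9b-5p that of miR-9-3p over 19 bases.
miR-9-5p: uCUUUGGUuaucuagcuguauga
miR-9b-3p: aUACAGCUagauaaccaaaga
miR-9-3p: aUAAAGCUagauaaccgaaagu
miR-9b-5p: uUCGGUUAucuagcuuuauga
The capitals again mark seeds, and the 4 seeds differ. miR-9b-3p also resembles miR-9-3p, from which it differs by A4C, G17A, A20G and G21A and in length.

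miR-9b-3p held 3.96%, 3.91%, 4.41%, 3.71% and 3.41% of reads and was among the 7 most abundant entries in every library. Its ratio to miR-9-5p was 14.3%, 14.6%, 16.6%, 14.4% and 14% (14.8% ± 1.03). The ratio of miR-9b-5p to miR-9-3p was 15.6% to 18.2% in replicates 1 to 4 and 26.8% in replicate 5 (18.8% ± 4.57). The 4 entries together held 32.3% ± 1.62 of all reads. Whether the authors' counting used the strand is not given in the sources used here, so reads of miR-9b and of its complement on the other strand cannot be told apart with certainty.

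Counting the miR-9 pairs, 12 pairs of entries with a summed share over 0.01% were complementary over at least 16 bases. Among the others, miR-129b-3p (0.0620%) reached 5.34% of miR-129-5p, and miR-3074-5p (0.0583%) reached 53.5% of miR-24-3p. For miR-126b-5p and miR-374c-3p, by contrast, the ratio to the complement was 0.204% and 0.0864%. These pairs other than miR-9 were chosen after their values were seen.

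Precursors on the same strand within 10 kb of the next were joined into clusters, and a form with several precursors was divided equally among them. Of all reads, 43.9% ± 1.24 fell to clusters of at least 2 precursors and 54.1% ± 1.27 to single precursors. The leading cluster by mean share was Mir99a to Mirlet7c-1 on chromosome 16 (11.2% ± 1.43; 10.6% ± 0.856 without replicate 5), with miR-99a-5p as its highest and miR-99a-3p (0.758 CPM) as its lowest form. It led in 4 of the 5 libraries, while in replicate 1 Mir3093 to Mir9-1 was higher (9.88% against 9.45%). With gaps up to 50 kb Mir125b-2 joined it, and the cluster held 12.8%.

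The second cluster, Mir3093 to Mir9-1 on chromosome 3 (9.36% ± 0.461), owed its place to the equal division of miR-9. Its own forms miR-3093-5p and miR-3093-3p were at 5.55 CPM and 5.54 CPM, and without forms of several precursors it held 0.00111%. The let-7 clusters depended on the division in the same way. Mirlet7d to Mirlet7a-1 on chromosome 13 held 3.58% ± 0.127 with it and 1.55% without, Mirlet7f-2 to Mir98 on the X chromosome 2.15% and 0.108%, and Mirlet7c-2 to Mirlet7b on chromosome 15 1.91% and 0.619%. Mir26a-2 to Mir546 on chromosome 10 held 1.25% with it and 0.00262% without. The 1.55% of Mirlet7d to Mirlet7a-1 includes let-7a-5p (1.07% of reads), for which only the numbered precursor Mirlet7a-1 is listed. If let-7a-5p has further precursors, both values of that cluster would be lower.

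Entries of the chromosome 12 domain each had their own precursor, apart from miR-3070-5p, so their shares did not depend on the division. This domain, known as Dlk1-Dio3, is imprinted, and its miRNAs are expressed from the maternal chromosome. It spanned 184 kb (chr12:109563692-109747960, plus strand) with 56 precursors, 5.22% of the 1072 with a position, and held 5.89%, 6.03%, 6.22%, 7.27% and 7.30% of reads in replicates 1 to 5 (6.54% ± 0.689). Replicates 4 and 5, the shallowest, were the highest; whether depth had a part in this was not tested.

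Of the 100 domain entries matched to a RefSeq mature form, each counted under its precursor, 15 reached 1000 CPM, 33 reached 100 CPM and 55 reached 10 CPM, while 21 were under 1 CPM. Arms without such a match, miR-487b-3p (892 ± 94.8 CPM), miR-376c-3p (87.3 ± 10.9 CPM), miR-485-5p (57.8 ± 12.1 CPM) and miR-539-3p (0.728 ± 0.205 CPM), belong to precursors of the domain by name but are not in these counts or in the domain and cluster shares. Its proximal cluster, Mir770 to Mir136 in and near Meg3, held 2.74% ± 0.265. miR-127-3p was the highest form at 12999, 10669, 13300, 13649 and 12052 CPM, followed by miR-434-5p at 6991 ± 1927 CPM. Both arms of miR-434 were abundant, but they differed in spread: miR-434-3p ran from 3278 to 3537 CPM and miR-434-5p from 4676 to 9551 CPM.

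The distal cluster, Mir379 to Mir3072 with 38 precursors, overlaps the noncoding RNA Mirg and held 3.15% ± 0.356. All 68 of its matched entries had reads, over a range from miR-381-3p at 8259 ± 1919 CPM to miR-654-5p at 0.0607 CPM. miR-381-3p was at 5981, 7266, 7580, 9845 and 10622 CPM in replicates 1 to 5. It was followed by miR-379-5p (3736 ± 658 CPM), miR-300-3p (2867 ± 220.0 CPM), miR-323-3p (2241 ± 116 CPM) and miR-382-5p (2212 ± 182 CPM). Of these 68 entries, 37 reached 10 CPM. Between both clusters, Mir341 to Mir370 added 0.649% ± 0.0910, nearly all of it miR-370-3p (6266 ± 905 CPM).

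**Figure D3:**
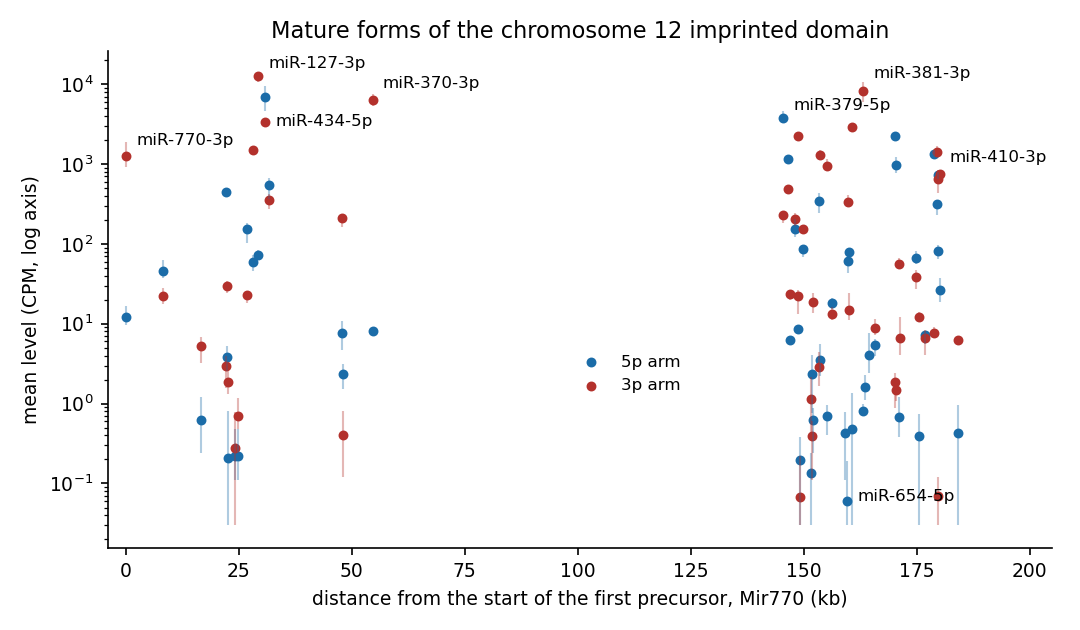
Mean level (CPM, log axis) of the 100 matched mature forms of the chromosome 12 domain against the distance of its precursor from that of Mir770 (kb), blue for 5p and red for 3p arms, with lines from the lowest to the highest library (libraries at 0 are drawn at the foot). Levels run from 12534 CPM for miR-127-3p to under 0.1 CPM, with high and low forms side by side in each cluster.

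Against GENCODE M21, most reads came from precursors within noncoding genes, a majority that rests on miR-9-5p and miR-9-3p. Precursors in introns of noncoding genes were 5.13% of precursors and held 37.0% ± 0.545 of reads, and those in exons of noncoding genes were 5.88% and held 17.8% ± 0.532. Introns of protein-coding genes held 40.8% of precursors and 20.6% ± 0.620 of reads. Exons of protein-coding genes held 15% of precursors and 2.86% ± 0.130 of reads. The remaining 33.2% of precursors, outside such genes, gave 19.7% ± 0.785. Together the noncoding introns and exons held 54.9% ± 0.586. The equal division of miR-9-5p and miR-9-3p (28.1% ± 1.38) among 2 intronic loci and 1 exonic locus sets the split between them. Without these forms the introns held 18.3% ± 1.25 and the exons 8.47% ± 0.270 of all reads.

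Both arms were listed for 489 precursor names, and 186 pairs had at least 50 reads in the sum of both arms in every library. The ratio was taken as log2 of (5p reads + 0.5) over (3p reads + 0.5). The 5p arm was higher on average in 95 pairs and the 3p arm in 91. The side was the same in all 5 libraries for 183 pairs, and the exceptions were miR-140, miR-873a and miR-369. The median absolute log2 ratio was 4.94, a 30.8-fold difference between arms, against a median SD between libraries of 0.36. In 122 pairs the arms differed by over 10-fold (63 toward 5p, 59 toward 3p), in 20 by over 1000-fold, and in 16 they lay within 2-fold.

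The strongest 5p preference was that of miR-99a, with 3159726 reads of the 5p arm and 22 of the 3p arm over the 5 libraries. Its log2 ratio was 16.61, 18.36, 17.09, 16.47 and 16.39, and the pooled ratio of 143624 had a 95% counting interval of 94863 to 229177. It was followed by let-7g (log2 ratio 14.36 ± 0.19, SD, n = 5), miR-100 (12.95 ± 0.87), miR-7b (12.18 ± 0.41), let-7i (11.74 ± 0.15) and miR-21a (11.45 ± 1.18). All 6 are known to act through their 5p arms. The 3p arms of miR-99a and miR-21a had 2 to 8 reads per library, so the values of these pairs are limited by counting, whereas let-7i-3p had 33 to 145.
miR-99a-5p: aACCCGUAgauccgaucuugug
miR-99a-3p: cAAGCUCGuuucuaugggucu

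Toward the 3p arm, miR-328 had 35537 reads of the 3p arm and a single read of the 5p arm, which was at 0 in 4 of 5 libraries. Its pooled ratio therefore had a counting interval of 6378 to 1.40e+06. miR-381 had 254207 reads against 27 (log2 ratio -13.14 ± 0.29), a ratio of 9415 with an interval of 6471 to 14287. miR-300, another form of the chromosome 12 domain, stood at -12.63 ± 1.03 and miR-107 at -12.28 ± 1.89, with 16 and 4 reads of the lower arm. Without replicate 5, at -9.72, miR-107 stood at -12.92 ± 1.42. miR-27b (-10.94 ± 0.57) and miR-3099 (-10.25 ± 1.04; -10.68 ± 0.49 without replicate 5) completed the 6 most 3p-biased pairs. The counting intervals cover counting error only, since reads are not independent molecules. miR-103-3p (0.804% of reads) and miR-107-3p (0.0775%) differ by 1 base (G22C), as do miR-27a-3p and miR-27b-3p (C19U). The reservation on the assignment of reads given for let-7 applies to these arms.

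At the other end, 6 pairs lay nearest to equal arms. miR-873a stood at -0.19 ± 0.29, miR-490 at -0.21 ± 0.19, miR-369 at 0.23 ± 0.47, miR-140 at -0.29 ± 0.27, miR-380 at -0.40 ± 0.25 and miR-30e at -0.43 ± 0.16. For miR-369 the 5p arm had 6901, 5889, 5345, 3966 and 1980 reads and the 3p arm 5068, 5968, 6820, 3426 and 1073. The 5p arm was thus higher in replicates 1, 4 and 5 and lower in replicates 2 and 3. These arms carry different seeds and were read at similar levels.
miR-369-5p: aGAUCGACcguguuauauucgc
miR-369-3p: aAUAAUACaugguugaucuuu
miR-30e also has a near relative, since miR-30a-3p and miR-30e-3p differ by 1 base (G18A), and the same reservation on the assignment of reads applies.

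Of the 20 most abundant forms, those of 10 precursor names had both arms under the same name. miR-9 stood at 3.89, 3.83, 3.80, 3.89 and 3.94 (3.87 ± 0.06), a 14.6-fold excess of 5p with an SD far below the median of 0.36. miR-9b stood at -3.55 ± 0.32, with replicate 5 highest at -3.0. miR-340 favoured 5p (4.37 ± 0.31; 4.51 without replicate 5) and miR-127 favoured 3p (-7.42 ± 0.16). The ratio of miR-9 was thus moderate: miR-9-3p, with 6.46% of the reads of its pair, was itself the eleventh most abundant entry.

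**Figure D4:**
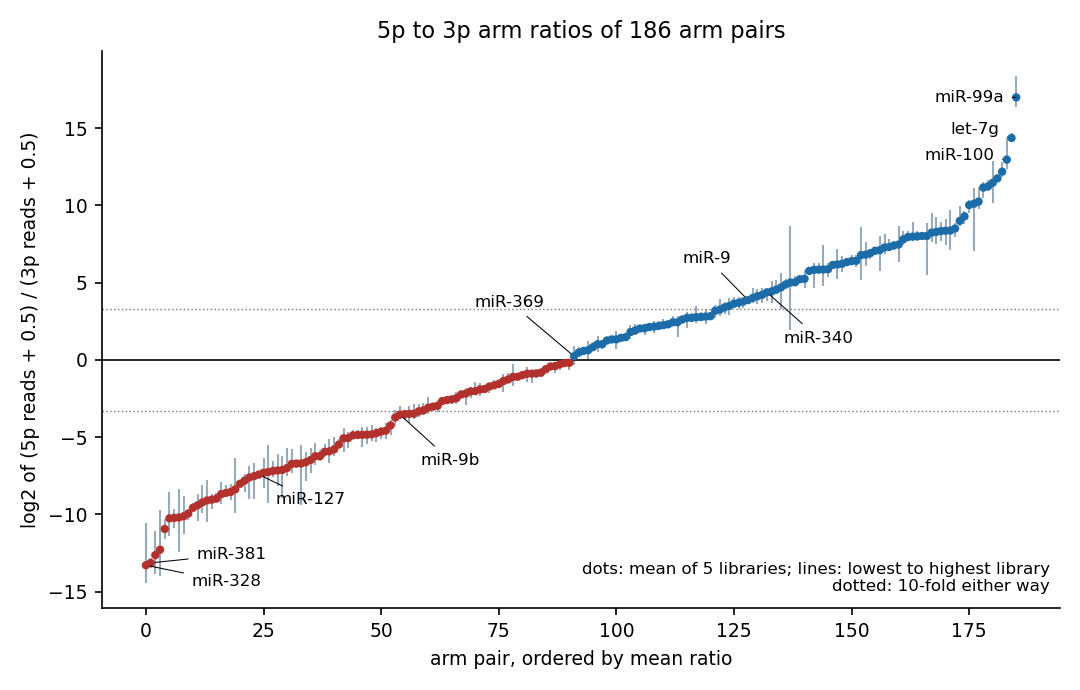
Log2 of the 5p to 3p ratio of 186 arm pairs, ordered by their mean, with a point for the mean of 5 libraries and a line from the lowest to the highest library. The curve passes through 0 near its middle (95 pairs above, 91 below), and 122 pairs lie outside the dotted lines of 10-fold.

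Other forms of the top 20 have several precursors whose opposite arms carry names of their own. For miR-125b, the opposite arm of Mir125b-1 had 28220 reads and that of Mir125b-2 10645. For miR-181a they were 35761 (miR-181a-1-3p) and 3726 (miR-181a-2-3p), and for miR-129 2395 (miR-129-1-3p) and 24387 (miR-129-2-3p). For miR-26a they were 60 (miR-26a-1-3p) and 878 (miR-26a-2-3p), and for miR-128 199 (miR-128-1-5p) and 35 (miR-128-2-5p). let-7f-1-3p had 627 reads and let-7f-2-3p 174, but in replicate 5 let-7f-2-3p (22.9 CPM) was above let-7f-1-3p (21.7 CPM). Without that library the mean of let-7f-2-3p was 3.94 CPM in place of 7.73 CPM. miR-103-1-5p and miR-103-2-5p, opposite miR-103-3p, had 2 reads each. let-7a-1-3p and let-7c-2-3p have the same sequence and were listed with equal reads in every library (15637 in all). Such equal values occurred in 8 sets of 17 entries of at least 50 reads, and the repeated values made up 0.0692% of all reads.

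Most reads began with U. Weighted by reads, 70.2% ± 1.45 started with U, 23.0% ± 1.06 with A, 4.55% ± 0.253 with C and 2.27% ± 0.318 with G, taking the annotated sequence of each name. Counted once each, 42.8% of the 1161 read entries with a sequence began with U, 25.7% with A, 20.2% with C and 11.4% with G. Without miR-9-5p, U still led with 59.3% of reads. Among the 150 arm pairs with both sequences, the more abundant arm began with U in 71 (47.3%) and the less abundant arm in 34 (22.7%). In 58 pairs only the more abundant arm did, in 21 only the other, and in 71 both or neither. Forms of 22 bases held 50.1% ± 1.58 of reads, of 23 bases 32.2% ± 1.54 and of 21 bases 14.7% ± 0.780. The read-weighted GC content was 41.5% ± 0.348, against 52.1% over entries, and 43.9% without miR-9-5p.

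Most entries were rare. By mean level, 17 entries reached 10000 CPM, 57 lay between 1000 and 10000 CPM, 127 between 100 and 1000 CPM and 177 between 10 and 100 CPM. A further 477 had reads but at most 3 in every library, and 102 had none in any. At least 1 read was found for 1112, 1103, 1104, 1026 and 1057 entries in replicates 1 to 5, and 808 entries were read in all 5. After thinning to 2492065 reads, 886, 883, 903 and 917 entries remained in replicates 1 to 4, against 1057 in replicate 5, which thus had the most entries at equal depth.

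Replicate spread exceeded counting error for most of the 378 entries of at least 10 CPM. Their median CV was 13.8% (quartiles 9.58% and 20.1%), against a median counting CV of 4.0%. It was 11.1% without replicate 5. The 20 most abundant forms had a median CV of 7.54%. The 6 steadiest entries were miR-26a-5p (2.51%), miR-92a-3p (2.64%), miR-28a-3p (3.10%), miR-434-3p (3.17%), miR-22-3p (3.39%) and let-7c-5p (3.50%). miR-26a-5p ran from 24371 to 25862 CPM. For miR-92a-3p and miR-28a-3p, at 58.4 and 57.8 CPM, the CV lay below the counting CV of 5.72% and 5.69%, so their steadiness can be no better than counting allows.

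The largest spread came from replicate 5. All 20 entries with a CV over 50% were highest there, and none had a CV over 50% without it. The 378 entries were kept by their mean over all 5 libraries, so an entry could reach 10 CPM through replicate 5 alone. In the other libraries miR-6538 was at 1.83 to 6.78 CPM and miR-7087-3p at 2.44 to 4.71 CPM. The filter thus favours entries high in replicate 5, also in the counts below. The 6 most variable were miR-7087-3p (CV 176%), miR-6538, miR-6937-5p, miR-690, miR-5627-3p and miR-6238 (157%). miR-690 was at 25.9, 33.0, 21.4, 37.2 and 451 CPM in replicates 1 to 5, and miR-6937-5p at 18.4, 24.4, 16.3, 27.1 and 345 CPM. Replicate 5 exceeded the median of the others over 2-fold for 22 of the 378 entries and was under 0.5 of it for 2 (miR-34c-5p and miR-15a-5p). Of those 22, 16 carried a name without an arm, against 28 of the 378, and 19 a number of 1000 or above, against 54. Together they held 0.315% of reads in replicate 5 and 0.0384% to 0.0524% in the others, so they hardly touched the shares of the abundant forms.

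**Figure D5:**
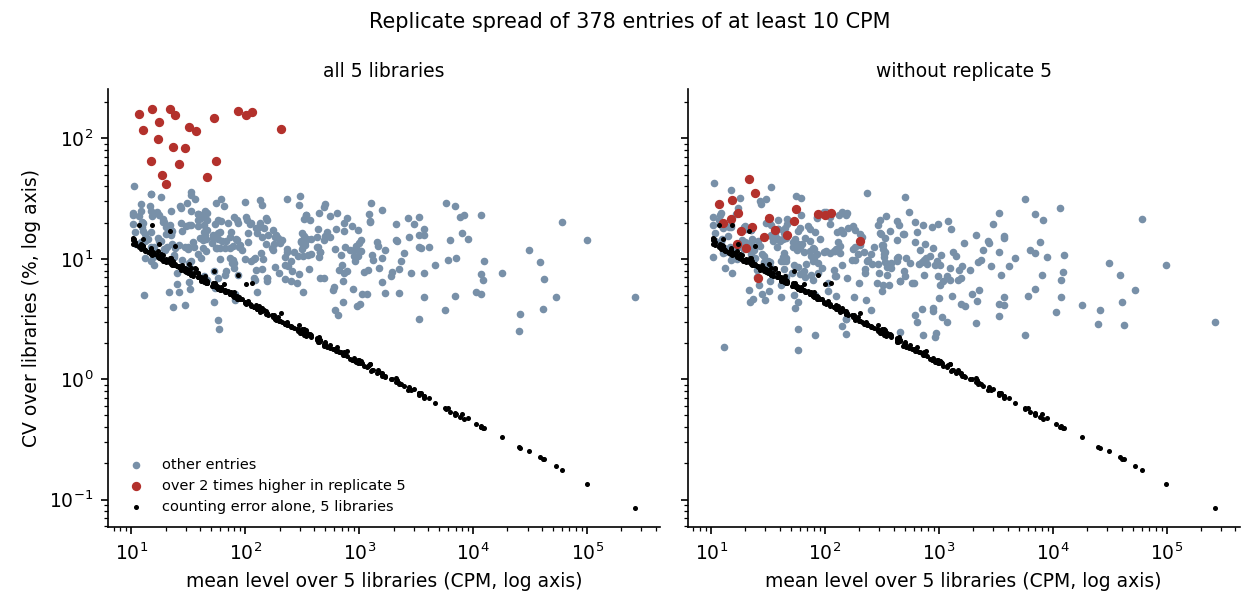
CV over libraries (%, log axis) against mean level (CPM, log axis) of 378 entries, with all 5 libraries on the left and without replicate 5 on the right; red marks the 22 entries over 2 times higher in replicate 5 and black the CV from counting alone. On the left the red points lie above 40%, and on the right they fall among the others.

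The neuron-enriched miR-9-5p and miR-128-3p ranked 1 and 3 among all entries. The neuron-enriched list was read in full, 10 of 10 members in every library, and held 35.8% ± 1.39 of reads (34.5% to 38.1%). Besides miR-9-5p, miR-128-3p, miR-129-5p and miR-7b-5p, it contained miR-124-3p (3353 ± 421 CPM), miR-218-5p (5745 ± 1680 CPM, with replicate 1 lowest at 3141), miR-132-3p (892 ± 106 CPM), miR-129-2-3p (729 ± 146 CPM), miR-137-3p (500.2 ± 77.0 CPM) and miR-138-5p (232 ± 26.5 CPM). The last of these lay below the endothelial miR-126a-3p (333 ± 46.0 CPM). The sum of the list was 92.3 to 114 times that of all lists for other cell types together (103 ± 9.41). Most of this was miR-9-5p and miR-128-3p, and the sum of the other 8 members was 8.08 to 11.5 times the other lists (9.99 ± 1.39). miR-9 is also expressed in neural progenitors, so the list alone does not separate these from neurons.

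Defining miRNAs of several other cell types were at or near 0. For oligodendrocytes, miR-219a-5p had 1 to 11 reads per library, and miR-219a-2-3p and miR-338-3p were at 3.52 and 5.09 CPM (list sum 6.00 to 11.7 CPM). For microglia and blood leukocytes, miR-142a-5p had at most 3 reads, miR-223-3p at most 1 and miR-142a-3p at most 8. The sum of that list (124 to 138 CPM) was almost all miR-146a-5p (126 ± 6.68 CPM), with miR-155-5p at 4.70 CPM. The pluripotent list, 4 of 8 members of which were in the table, summed to 0.609 to 2.18 CPM with miR-302a-3p, miR-302b-3p and miR-302d-3p each at 0 in at least 1 library and miR-295-3p at 0 in all. The 6 epithelial miRNAs (miR-200a-3p, miR-200b-3p, miR-200c-3p, miR-141-3p, miR-429-3p and miR-205-5p) summed to 3.29 to 4.45 CPM.

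Some members of the other lists were well above 0, and miR-21a-5p ranked 48 among all entries. The astrocyte-enriched or injury list summed to 1633 to 2428 CPM, nearly all miR-21a-5p, at 2237, 2232, 2415, 2182 and 1618 CPM; miR-31-5p was at 12.9 CPM and miR-193a-3p at 0.563 CPM. Endothelial miR-126a-3p was at 333 ± 46.0 CPM and miR-126a-5p at 12.5 CPM. In the erythroid list, miR-486a-5p was at 154 ± 10.6 CPM, but miR-451a had 3 to 7 reads per library and miR-144-3p 0 to 2. Mural miR-143-3p was at 38.2 CPM and miR-145a-5p at 0.554 CPM.

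Among muscle miRNAs, miR-1a-3p was at 40.2 CPM, miR-206-3p at 8.21 CPM and miR-133a-3p at 0.245 CPM. Liver miR-122-5p was at 45.8 ± 3.05 CPM. The photoreceptor and inner ear list, miR-183-5p (268 ± 30.8 CPM), miR-182-5p (253 ± 24.2 CPM) and miR-96-5p (55.6 ± 16.1 CPM), was read in full in every library. In cultures of mixed cells, a lower share of a cell type and less RNA per cell cannot be told apart, and which cells gave these reads was not tested.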

How the data were processed

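Libraries were prepared from TRIzol-extracted total RNA by the NEBNext small RNA method and selected by size, per the labels' protocols. The authors deposited 1 table for each pair of groups. The deposited score is no log2 CPM, since it reached 35.9 in the table used and the largest possible log2 CPM is 19.9. From the values, each score was a read number times a library factor, raised to a power of 0.108, with the extremes of each 5 libraries moved 64% of the way to their neighbour (quantiles 0.16 and 0.84). No label or header records this. Undoing both steps gave whole reads for 100% of 7405 values (tolerance 0.001; 71.3% without restoring extremes) and the same reads from the other 2 tables that hold these libraries (14740 comparisons, 0 differences). The recovery was tested on simulated data. With 1 group there was no comparison to test, and all results are descriptions over 5 libraries. A chi-square of each pair of libraries and Dixon's ratio served only as checks of the libraries. Shares and CPM use each library's recovered total. They count reads, and whether the preparation captured all sequences equally was not tested, so ranks and ratios between forms are those of reads. The build was mm10 per the submitters' processing notes; the aligner, miRNA release and treatment of shared reads are not given in the sources used here. Sequences and precursor positions are from RefSeq (GRCm38.p6) and host genes from GENCODE M21, both GRCm38, compared on the same strand. Precursors are those the RefSeq table lists. Levels were not scaled by length, since a read is taken to span a whole mature form. Named were the 20 highest shares, members of 10 seed families and 8 clusters, the 6 most 5p, most 3p and most even arm pairs, the 6 lowest and highest CVs, and all marker list members. Members and lists were chosen with earlier results of these data known. Python 3.11.15, NumPy 2.4.6, pandas 2.3.3 and SciPy 1.17.1 were used. Alternatives tried were other denominators, seeds, gaps, read minimums, pseudocounts and leaving out each library. Thinned correlations, the sum over the chromosome 12 domain, and values without miR-9, without miR-9-5p and miR-128-3p or without replicate 5 were added after seeing the data.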

Additional observations from a re-analysis of the deposited data

Results flagged for a closer look

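Dixon's ratio was computed for 127 named values over the 5 libraries. In 14, 1 library lay apart from the other 4 by more than 0.71 of the whole range. The 12 values named for the lowest and highest CV were chosen by the same spread, so their ratios are a description only. Of the other 115 values, 8 were past this ratio, where chance flags about 1 in 20, and in 3 of the 8 the library was replicate 5, the shallowest.

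Replicate 5 was far above the others for the 6 entries chosen for the highest CV. It had 451 CPM of miR-690 (others 21.4 to 37.2), 345 CPM of miR-6937-5p (16.3 to 27.1), 91.9 CPM of miR-6238 (5.26 to 10.8), 89.5 CPM of miR-6538 (1.83 to 6.78), 63.0 CPM of miR-7087-3p (2.44 to 4.71) and 44.9 CPM of miR-5627-3p (2.19 to 4.26). The same library had the highest miR-451a, at 2.81 CPM against 0.362 to 0.968, which is 7 reads. Its 5p to 3p log2 ratio was the highest for let-7g (14.70 against 14.24 to 14.33) and the lowest for miR-340 (3.83 against 4.46 to 4.59).

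Replicate 1 had the lowest 5p to 3p log2 ratio of miR-127 (-7.69 against -7.39 to -7.33) and the lowest miR-143-3p (31.0 CPM against 38.5 to 41.4). Replicate 3 had the lowest log2 ratio of miR-380 (-0.84 against -0.36 to -0.24). Replicate 4 had the highest share of let-7i-5p (5.73% against 5.06% to 5.24%) and the highest sum of the epithelial list (4.45 CPM against 3.29 to 3.62), a sum of few reads.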

How the results depend on the processing

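No paired analysis was possible because 1 group was described and no test was run. Shares and levels of 1 group have no direction that could change, so the alternatives tried were judged by the size of the move. For the values that answer the description, 189 alternatives moved by less than the spread between replicates and 18 by more; for single forms all 277 moved by less. The number of detected entries was 580.2 on average with at least 10 reads and 379.2 with at least 10 CPM. With gaps of 50 kb the Mir99a to Mirlet7c-1 cluster held 12.8% and Mir770 to Mir136 3.39%. Without forms listed with several precursors, Mir3093 to Mir9-1 held 0.00111%, Mirlet7d to Mirlet7a-1 1.55% and Mirlet7f-2 to Mir98 0.108%. Mirlet7c-2 to Mirlet7b held 0.619% and Mir26a-2 to Mir546 0.00262%. These clusters rest on miR-9, let-7 and miR-26a forms that several loci share. The 1.55% includes let-7a-5p, listed with Mirlet7a-1 only. With at least 500 reads, 109 arm pairs remained, 78 over 10-fold and 56 with more 5p. The median absolute log2 arm ratio was 4.28 with at least 10 reads, 5.24 with at least 500, 4.88 with a pseudocount of 1 read and 4.87 to 4.97 when each library was left out in turn. Counting each entry once, 42.8% began with U. Depth limits the rare end: in replicate 5 a floor of 3 reads is 1.20 CPM.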
